A study of Chlamydomonas reinhardtii with 34 samples.

Results

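The 49 gene models described here fell quickly after nitrogen was removed and were still low 2 days later, in both strains of the green alga Chlamydomonas reinhardtii that the study sampled. They were chosen from 17301 gene models by their own expression values. With each level written as log2(RPKM + 1), a model was taken when it stood at least 1.5 below the library made before the wash at each of 2, 4, 24 and 48 h without nitrogen, in sta6 and also in CC-4349. RPKM is the number of reads scaled to the length of the gene model and to the size of the library. The rule used 10 of the 34 libraries, so the values of those 10 describe how the models were chosen and carry no test. The other 24 libraries were not used by the rule, and every test below rests on them alone.

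Chlamydomonas reinhardtii is a unicellular alga that can live on light and carbon dioxide or on acetate. When it runs out of nitrogen it stops dividing, takes apart much of its photosynthetic and protein-making machinery and stores carbon as starch and as triacylglycerol, an oil. Transcripts that drop under these conditions are therefore commonly those of growth and photosynthesis, but the files give each model by an identifier only, so no function is assigned to any of the 49 here.

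The strain sta6 (CC-4348) cannot make starch, because the small subunit of its ADP-glucose pyrophosphorylase, the enzyme that supplies the sugar nucleotide for starch, is missing. CC-4349 was the strain it was set against, and each strain is a single line. Both were grown in HSM, a minimal medium with ammonium chloride as its nitrogen source, under a light of 25 µmol photons per m2 and second, then washed in HSM lacking ammonium chloride and resuspended in it at a lower density. Sampling times were pre-wash, then 0, 0.5, 2, 4, 8, 12, 24 and 48 h in the nitrogen-free medium, then the same 8 times counted anew from the addition of acetate, which followed 48 h of starvation and is called the boost. Both strains received every treatment, and no culture without the boost was sampled at the later times, so acetate and elapsed time cannot be told apart.

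Each strain and time point had 1 library, 17 per strain. Time points of a phase stand in for replicates, and because successive samples may come from 1 culture they are dependent, so that p-values are too small. The deepest library, sta6 at 12 h after the boost, held 9.42 times as many reads as the shallowest, sta6 at 2 h without nitrogen. Between 792 and 1526 models were listed at 0 per library. The libraries at 0 h without nitrogen and at 0.5 h after the boost held the fewest models at 1 RPKM or more, between 12858 and 13093 of them. The 0 h libraries are the baseline of several comparisons below, and the part of this feature in those results was not tested. RPKM is a share of the library, so a lower value has several possible sources. There can be less of that RNA per cell, fewer cells that carry it or more of other RNA, and these cannot be told apart.

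Before the wash the 49 models covered a wide range of levels, from 5.08 to 2532 RPKM over both strains. Summed, they made up 1.93% of all RPKM in sta6 and 1.76% in CC-4349. Series of starvation values below run in the order 0, 0.5, 2, 4, 8, 12, 24 and 48 h unless other times are named. In sta6 the sum was 1.80, 1.23, 0.293, 0.186, 0.159, 0.139, 0.243 and 0.211% over these times, and in CC-4349 it was 1.91, 1.48, 0.396, 0.335, 0.199, 0.167, 0.146 and 0.178%. The summed level was somewhat lower at 0.5 h than before the wash and far lower from 2 h onward. After the boost the sum lay between 0.168% and 0.299% in sta6 and between 0.145% and 0.211% in CC-4349, and at no time did it come near the level before the wash.

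**Figure D1:**
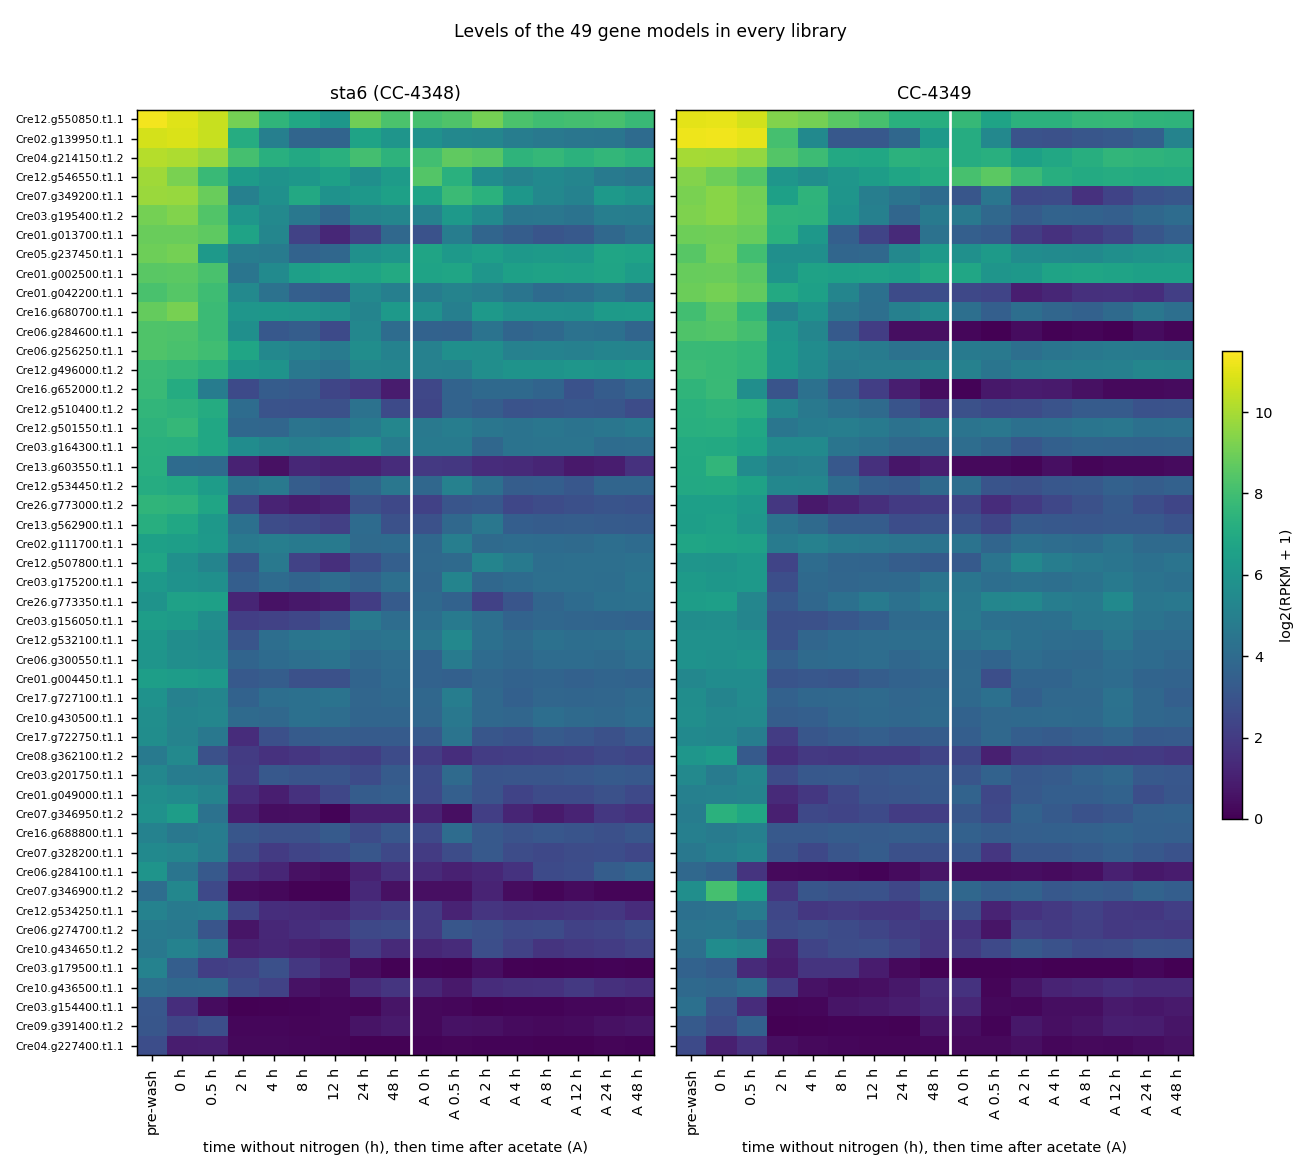
Level of each of the 49 gene models (rows, ordered by level before the wash) in each library (columns, in time order, A marking hours after acetate), as log2(RPKM + 1), for sta6 on the left and CC-4349 on the right, with 1 library per column and a white line at the boost. Most rows turn dark between 0.5 h and 2 h without nitrogen and stay dark to the last column in both strains.

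The fall was deep as well as early, which the rule asked for. It required at least 1.5 on the log2 scale at 2, 4, 24 and 48 h, so the medians at those times are a description. The median model stood at 9.67% of its pre-wash level in sta6 at 2 h and at 14.8% in CC-4349 at 2 h. At 4, 8, 12, 24 and 48 h the median was 7.23, 5.32, 4.99, 12.1 and 11.9% in sta6, and 18.8, 13.4, 12.8, 11.2 and 13.4% in CC-4349. The lowest point of the median thus lay at 12 h in sta6, while in CC-4349 the median varied little from 8 h onward. Over the libraries without nitrogen, 17 models had their lowest value at 12 h and 11 at 2 h in sta6, whereas in CC-4349 19 had it at 2 h and 11 at 24 h. The sta6 library at 2 h is the shallowest of all.

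The rule has a threshold, and models lie close to it on both sides. Just inside were Cre16.g688800.t1.1, Cre04.g214150.t1.2 and Cre03.g164300.t1.1, whose smallest falls on the log2 scale were -1.555, -1.552 and -1.511. Just outside were Cre16.g675550.t1.1, Cre02.g084400.t1.1 and Cre06.g296700.t1.1, at -1.491, -1.467 and -1.462. All 6 of these smallest falls were in CC-4349. The number of models taken moved with the threshold, to 124 with a threshold of 1 and 18 with a threshold of 2, so 49 is a choice along a continuum.

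Depth did not limit most of the models. That all 49 reached 1 RPKM in at least 1 library follows from the rule. Over the 34 libraries 48 averaged 1 RPKM or more and 43 averaged 5 RPKM or more. Read numbers could be recovered from the steps between low values for each of the 49, and before the wash no model rested on fewer than 172 reads. In their lowest library 12 of the 49 held fewer than 10 reads, so the depth of the fall of those 12 is imprecise. Cre03.g154400.t1.1, Cre03.g179500.t1.1 and Cre06.g284600.t1.1 had 0 reads in at least 1 library.

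The most abundant of the 49 before the wash were Cre12.g550850.t1.1 and Cre02.g139950.t1.1, with 2532 and 1726 RPKM in sta6 and 2097 and 2389 in CC-4349. Cre12.g550850.t1.1 remained among the higher models throughout. During starvation it had 1960, 1497, 545, 183, 113, 67.6, 507 and 301 RPKM in sta6. In CC-4349 the values were 2139, 1674, 635, 552, 380, 283, 158 and 147 RPKM. The level in CC-4349 was lower at each later time, while that in sta6 was lowest at 12 h and higher again at 24 h.

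Cre02.g139950.t1.1 went to far lower levels than Cre12.g550850.t1.1. During starvation it had 1845, 1460, 136, 30.4, 12.3, 12.0, 99.5 and 63.8 RPKM in sta6. In CC-4349 the values were 2463, 2138, 272, 43.4, 8.11, 8.08, 13.3 and 72.9 RPKM. In both strains its level without nitrogen was lowest at 8 and 12 h and higher again at 48 h.

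The other 8 of the 10 models with the highest level before the wash kept different remainders. Cre04.g214150.t1.2 had 174 RPKM at 48 h in sta6, against 1191 RPKM before the wash, and 154 RPKM at 48 h in CC-4349, against 1002 RPKM before the wash. Cre01.g013700.t1.1 had 13.9 RPKM at 48 h in sta6, against 472 RPKM before the wash, and 19.4 RPKM at 48 h in CC-4349, against 504 RPKM before the wash. At 24 h Cre01.g013700.t1.1 was lower still, with 3.89 RPKM in sta6 and 1.61 in CC-4349. Cre01.g002500.t1.1 had its low point early, with 124 RPKM at 48 h in sta6, against 21.2 RPKM at 2 h, and 121 RPKM at 48 h in CC-4349, against 59.7 RPKM at 2 h. Cre12.g546550.t1.1, Cre07.g349200.t1.1, Cre03.g195400.t1.2, Cre05.g237450.t1.1 and Cre01.g042200.t1.1 complete the 10, and their values are in the strain and time comparisons or in the plot of levels.

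The models differed in whether they kept falling. Comparing the mean log2 level at 24 and 48 h with that at 2 and 4 h, 3 models were lower by at least 1 in both strains, namely Cre01.g013700.t1.1, Cre03.g179500.t1.1 and Cre16.g652000.t1.2. Another 3 were higher by at least 1 in both strains, namely Cre01.g049000.t1.1, Cre03.g156050.t1.1 and Cre26.g773350.t1.1. In sta6 3 models were lower by at least 1, 8 were higher by at least 1 and 38 lay within 1. In CC-4349 15 were lower, 4 were higher and 30 lay within 1. Since these 8 libraries chose the models, the counts are a description.

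Washing alone left most of the 49 near their starting level. At 0 h, 38 of the 49 stood between 50 and 150% of the pre-wash level in both strains, and the median was 88.5% in sta6 and 102% in CC-4349. On the log2 scale the median change was -0.17 in sta6 and 0.03 in CC-4349, against -0.20 and -0.16 over all models tested. The share of all models within 50 to 150% was not counted, and the pre-wash libraries were used by the rule, so the 38 are a description. A pair of models was already under 50% at 0 h in both strains. Cre03.g154400.t1.1 had 1.87 RPKM at 0 h in sta6, against 7.67 RPKM before the wash, and 6.80 RPKM at 0 h in CC-4349, against 17.8 RPKM before the wash. Cre04.g227400.t1.1 had 0.878 RPKM at 0 h in sta6, against 5.64 RPKM before the wash, and 1.01 RPKM at 0 h in CC-4349, against 5.08 RPKM before the wash. These are among the least abundant of the 49, and most of the drop of Cre04.g227400.t1.1 from its pre-wash level was already present at 0 h.

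Another pair was above 150% at 0 h in both strains. Cre07.g346900.t1.2 had 39.0 RPKM at 0 h in sta6, against 16.5 RPKM before the wash, and 271 RPKM at 0 h in CC-4349, against 50 RPKM before the wash. Cre07.g346950.t1.2 had 84.4 RPKM at 0 h in sta6, against 54.9 RPKM before the wash, and 164 RPKM at 0 h in CC-4349, against 27.6 RPKM before the wash. Both lie on chromosome 7, with 2 models of the reference annotation between them. Over all 17 libraries of a strain, 37 models had their highest value before the wash and 12 at 0 h in sta6, while in CC-4349 17 had it before the wash, 24 at 0 h and 8 at 0.5 h.

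The first 30-minute interval was tested, with the 0.5 h libraries of both strains against the 0 h libraries of both strains, none of which chose the models. By limma with Benjamini-Hochberg adjustment over 15598 models, and with at least a 2-fold change asked of a call, 11 of the 49 fell. Over all models tested 4.94% were called lower, so 11 of 49, or 22.4%, is a larger share than the background, and 0 of the 49 rose, where 7.71% of all models were called higher. The median difference of the 49 was -0.37 on the log2 scale, against 0.18 over all models tested, and 39 of the 49 were negative. The remaining 38 models were not called at 0.5 h. Some of them had an adjusted p under 0.05 but changed less than 2-fold. These were Cre12.g501550.t1.1 (-0.64, limma adjusted p = 0.00971), Cre09.g391400.t1.2 (0.62, limma adjusted p = 0.0138) and Cre04.g227400.t1.1 (0.34, limma adjusted p = 0.0251). The times 0 and 0.5 h lie between pre-wash and 2 h, which chose the models, so the excess over the background is not independent of the rule. Each of the 49 also had at least 5.08 RPKM before the wash, while a tested model needed 1 RPKM in any library, so the shares compare unlike sets.

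The largest fall at 0.5 h was that of Cre08.g362100.t1.2, with 6.30 RPKM at 0.5 h in sta6, against 42.1 RPKM at 0 h, and 8.67 RPKM at 0.5 h in CC-4349, against 80.3 RPKM at 0 h. The log2 difference was -2.82 (SE 0.257, limma adjusted p = 1.59e-06). It was lower again at 2 h, with 3.01 RPKM in sta6 and 1.82 in CC-4349. Cre07.g346900.t1.2 followed with 4.86 RPKM at 0.5 h in sta6, against 39.0 RPKM at 0 h, and 89.5 RPKM at 0.5 h in CC-4349, against 271 RPKM at 0 h, a difference of -2.18 (SE 0.216, limma adjusted p = 3.67e-06). The strains lay apart in level for this model, and both were lower at 0.5 h.

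Cre16.g652000.t1.2 had 27.3 RPKM at 0.5 h in sta6, against 134 RPKM at 0 h, and 51.1 RPKM at 0.5 h in CC-4349, against 221 RPKM at 0 h, a difference of -2.17 (SE 0.328, limma adjusted p = 0.000149). Cre05.g237450.t1.1 had 73.2 RPKM at 0.5 h in sta6, against 554 RPKM at 0 h, and 260 RPKM at 0.5 h in CC-4349, against 542 RPKM at 0 h, a difference of -1.98 (SE 0.239, limma adjusted p = 2.16e-05). For Cre05.g237450.t1.1 the 0 h levels of the strains were close and the 0.5 h levels were not. Cre03.g179500.t1.1 had 3.42 RPKM at 0.5 h in sta6, against 9.67 RPKM at 0 h, and 1.59 RPKM at 0.5 h in CC-4349, against 9.25 RPKM at 0 h, a difference of -1.63 (SE 0.223, limma adjusted p = 6.51e-05). In each of these models both 0.5 h libraries lay below both 0 h libraries. The call for Cre16.g652000.t1.2 was lost with an additive model (limma adjusted p = 0.0790) and that for Cre03.g179500.t1.1 with a pseudocount of 5 (-0.96).

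The other 6 that fell at 0.5 h were Cre06.g284100.t1.1 (-1.54), Cre03.g154400.t1.1 (-1.32), Cre07.g346950.t1.2 (-1.29), Cre16.g680700.t1.1 (-1.15), Cre13.g603550.t1.1 (-1.03) and Cre06.g274700.t1.2 (-1.0), all on the log2 scale. Of these 6, Cre03.g154400.t1.1 alone kept its call whichever library was left out. Leaving out the 0 or 0.5 h library of a strain leaves the change in the other strain alone, 1 library against 1. In CC-4349 alone the differences were -0.51 for Cre07.g346950.t1.2, -0.46 for Cre06.g274700.t1.2 and -0.97 for Cre16.g680700.t1.1. In sta6 alone they were -0.06 for Cre13.g603550.t1.1, -1.25 for Cre06.g284100.t1.1 and -1.33 for Cre16.g680700.t1.1. Each of these 5 calls was thus lost with 1 strain taken alone, and there is 1 library per strain at each time. Under other pseudocounts, scalings or models each of the 6 but Cre06.g284100.t1.1 lost its call at least once. The 2 highly abundant models named above were not among the 11. Singly, 42 of the 49 were lower at 0.5 h than at 0 h in sta6 and 36 in CC-4349, against 35.3% and 35.4% of all models tested. The median model stood at 75.0% of its 0 h level in sta6 and 79.6% in CC-4349, and the share was the lower one in sta6 for 43 of the 49, against 49.4% of all models with a value above 0 at 0 h in both strains. This last count compares single libraries and has no replicate check.

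At 8 and 12 h without nitrogen, which the rule did not use either, the 49 were far below 0 h. Of the 49, 47 fell by limma, and 0 rose, where 7.56% of all models tested were called lower and 16.5% higher. The median difference was -3.01 on the log2 scale, against 0.31 over all models tested, and the 49 ranged from -7.61 to -0.78. In all 49 each of the 4 libraries at 8 and 12 h lay below both 0 h libraries, a pattern that 15.4% of all models tested showed. The times at 8 and 12 h lie between times that chose the models, possibly in the same cultures, so low values there are not independent of what the rule used.

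Cre02.g139950.t1.1 fell furthest, to 12.3 and 12.0 RPKM at 8 and 12 h in sta6, against 1845 RPKM at 0 h, and to 8.11 and 8.08 RPKM in CC-4349, against 2463 RPKM at 0 h. The log2 difference was -7.61 (SE 0.593, limma adjusted p = 3.71e-08). Cre01.g013700.t1.1 had 3.85 and 1.40 RPKM at 8 and 12 h in sta6, against 467 RPKM at 0 h, and 10.1 and 4.05 RPKM in CC-4349, against 506 RPKM at 0 h, a difference of -6.59 (SE 0.555, limma adjusted p = 9.03e-08). For both models the libraries at 8 and 12 h were at least an order of magnitude below those at 0 h.

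Cre26.g773000.t1.2 had 0.819 and 1.16 RPKM at 8 and 12 h in sta6, against 172 RPKM at 0 h, and 1.21 and 1.89 RPKM in CC-4349, against 87.6 RPKM at 0 h, a difference of -5.79 (SE 0.261, limma adjusted p = 6.17e-11). Cre06.g284600.t1.1 had 9.49 and 4.98 RPKM in sta6, against 309 RPKM at 0 h, and 8.52 and 3.23 RPKM in CC-4349, against 340 RPKM at 0 h, a difference of -5.52 (SE 0.30, limma adjusted p = 5.72e-10). Cre07.g346950.t1.2 had 0.390 and 0.0965 RPKM in sta6, against 84.4 RPKM at 0 h, and 4.19 and 4.99 RPKM in CC-4349, against 164 RPKM at 0 h, a difference of -5.50 (SE 0.392, limma adjusted p = 1.34e-08). The strains were alike in level for Cre06.g284600.t1.1 at these times and lay apart for Cre07.g346950.t1.2.

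At the other end, Cre04.g227400.t1.1 and Cre17.g727100.t1.1 did not reach a 2-fold change and were not called. Cre04.g227400.t1.1 had 0.154 and 0.107 RPKM at 8 and 12 h in sta6, against 0.878 RPKM at 0 h, and 0.145 and 0.125 RPKM in CC-4349, against 1.01 RPKM at 0 h, which on the log2(RPKM + 1) scale is a difference of -0.78 (SE 0.0961, limma adjusted p = 5.38e-06). This scale understates the change of low models, and with a pseudocount of 0.1 all 49 were called lower. Cre17.g727100.t1.1 had 18.0 and 19.6 RPKM in sta6, against 31.8 RPKM at 0 h, and 14.0 and 14.9 RPKM in CC-4349, against 35.8 RPKM at 0 h, a difference of -0.99 (SE 0.287, limma adjusted p = 0.00781). Cre10.g430500.t1.1 (-1.26), Cre12.g532100.t1.1 (-1.41) and Cre16.g688800.t1.1 (-1.5) had the smallest falls among those called. Cre12.g532100.t1.1 was lower at 2 h than at these times, with 7.09 RPKM at 2 h and 21.0 and 23.7 RPKM at 8 and 12 h in sta6, and 6.48 RPKM at 2 h and 15.4 and 16.5 RPKM in CC-4349.

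**Figure D2:**
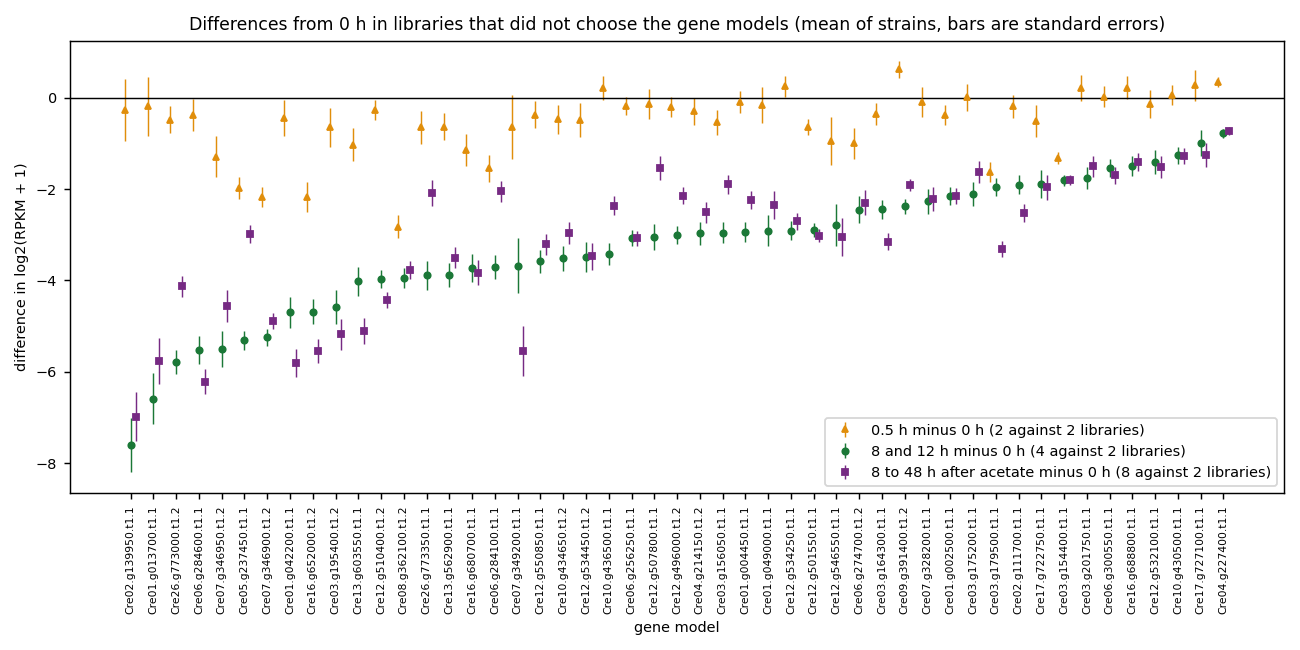
Difference from 0 h without nitrogen on the log2(RPKM + 1) scale (vertical axis) for each of the 49 gene models (horizontal axis, ordered by the difference at 8 and 12 h), as the mean over the strains with standard errors from limma. At 0.5 h (triangles) most models lie near 0, with Cre08.g362100.t1.2 lowest at -2.82, whereas at 8 and 12 h (circles) and at 8 to 48 h after acetate (squares) all 49 lie below 0. The 3 comparisons share the same 0 h libraries.

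The fall lasted through the boost. At 8, 12, 24 and 48 h after acetate, 48 of the 49 were lower than at 0 h without nitrogen by limma, where 12.4% of all models tested were called lower, and 0 were higher, where 19.9% were called higher. The median difference was -2.70 on the log2 scale, against 0.28 over all models tested. In 48 of the 49 each of the 8 libraries lay below both 0 h libraries, a pattern shown by 20.9% of all models tested. This comparison shares its 0 h libraries with those at 0.5 h and at 8 and 12 h, so a low or high value at 0 h moves all of them. The boost followed 48 h of starvation, a time at which the rule asked for a fall, and most of the 49 were near their pre-wash level at 0 h. Low values after the boost are therefore not independent of what the rule used, and the excess over the background is partly built in.

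Averaged over these late times, the median model held 11.4% of its 0 h level in sta6 and 12.2% in CC-4349. No model exceeded 50% in either strain. The highest was Cre10.g430500.t1.1 at 43.6% in sta6 and Cre03.g156050.t1.1 at 42.3% in CC-4349, and the lowest model held 0.389% in sta6 and 0.0400% in CC-4349. Cre04.g227400.t1.1 was the 1 model not called (-0.72, SE 0.0878, limma adjusted p = 2.77e-06), and its change was again under 2-fold on this scale. The largest differences were those of Cre02.g139950.t1.1 (-6.98), Cre06.g284600.t1.1 (-6.22), Cre01.g042200.t1.1 (-5.81) and Cre01.g013700.t1.1 (-5.76).

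The median of all models tested was 0.31 at 8 and 12 h, 0.18 at 0.5 h and 0.28 late after the boost, each against 0 h, and median-of-ratios scaling brought these to 0.01, 0.00 and 0.01. With that scaling the members' median was -3.41 at 8 and 12 h, -0.63 at 0.5 h and -3.02 late after the boost, and the numbers called lower were 48, 11 and 48. With quantile normalization the numbers called lower were 49, 8 and 49.

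Few of the 49 differed between the times after the boost and boost 0 h. Against the libraries at 0 h after the boost, those at 0.5, 2 and 4 h differed in 3 of the 49 by limma, 2 higher, where 0.250% of all models tested were called higher, and 1 lower, where 1.58% were called lower. The libraries at 8 to 48 h after acetate differed in 3, 1 higher, where the background was 0.263%, and 2 lower, where it was 0.468%. The 2 comparisons share the boost 0 h libraries, of which there is 1 per strain. The median differences of the 49 were 0.02 for 0.5 to 4 h, against -0.09 over all models tested, and -0.01 for 8 to 48 h, against -0.02 over all models tested. At an unadjusted p under 0.05, 13 of the 49 passed limma's test early and 14 late, beside 3887 and 2942 of the 15598 models tested.

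The pair that rose early after acetate was Cre12.g507800.t1.1 and Cre16.g652000.t1.2. Cre12.g507800.t1.1 had 14.8, 36.0 and 24.6 RPKM at 0.5, 2 and 4 h after acetate in sta6, against 13.7 RPKM at boost 0 h, and 20.3, 40.7 and 28.1 RPKM in CC-4349, against 8.44 RPKM at boost 0 h. All 6 early boost libraries lay above the boost 0 h library of their own strain, and the difference was 1.2 (SE 0.269, limma adjusted p = 0.0119). Without the CC-4349 library at boost 0 h, sta6 alone was compared, with a difference of 0.74, and the call was lost. The call was also lost with an additive model (limma adjusted p = 0.0805) and with a pseudocount of 5 (0.98). Its highest value after acetate was at 2 h in both strains, and at 48 h after acetate it had 18.4 RPKM in sta6 and 20.5 in CC-4349. Before the wash it had 106 RPKM in sta6 and 63.5 in CC-4349, so the peak after acetate stayed below that level. This model is named after its values were seen.

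Cre16.g652000.t1.2 had 11.6, 14.3 and 14.4 RPKM at 0.5, 2 and 4 h after acetate in sta6, against 4.42 RPKM at boost 0 h, and 0.677, 0.828 and 0.763 RPKM in CC-4349, against 0.0946 RPKM at boost 0 h. The difference was 1.04 (SE 0.267, limma adjusted p = 0.0239). Without the sta6 library at boost 0 h, which leaves CC-4349 alone, it was 0.68. Without the CC-4349 library at boost 0 h, which leaves sta6 alone, it was 1.41, and in both cases the call was lost. The call was also lost with matched times as a random block (limma adjusted p = 0.0606), with an additive model (limma adjusted p = 0.487) and with a pseudocount of 5 (0.57). The values in CC-4349 remained under 1 RPKM throughout.

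Cre02.g139950.t1.1 was lower after acetate in both comparisons. It had 39.9, 37.7 and 28.2 RPKM at 0.5, 2 and 4 h after acetate in sta6, against 55.5 RPKM at boost 0 h, and 40.2, 6.63 and 6.26 RPKM in CC-4349, against 136 RPKM at boost 0 h. At 8, 12, 24 and 48 h it had 24.4, 21.9, 21.4 and 15.2 RPKM in sta6 and 7.55, 8.13, 10.5 and 34.6 in CC-4349. The log2 difference was -2.02 early (SE 0.559, limma adjusted p = 0.0341) and -2.38 late (SE 0.541, limma adjusted p = 0.0199). Each library after acetate lay below the boost 0 h library of its own strain. Without the CC-4349 library at boost 0 h, however, sta6 alone was compared. The differences were then -0.65 early and -1.40 late, and both calls were lost. With matched times as a random block both were lost as well, at limma adjusted p = 0.153 early and 0.125 late, and the early call was lost with median-of-ratios scaling (limma adjusted p = 0.0604) and with an additive model (limma adjusted p = 0.0597). The early call was also lost without CC-4349 at 2 h after acetate (-1.82, limma adjusted p = 0.0597), without sta6 at 2 h (-2.04, limma adjusted p = 0.0512) and without sta6 at 4 h (-1.94, limma adjusted p = 0.0516).

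Cre12.g546550.t1.1 stood high at boost 0 h, with 341 RPKM in sta6, against 77.9 RPKM at 48 h without nitrogen, and 280 RPKM in CC-4349, against 132 RPKM at 48 h without nitrogen. At 8, 12, 24 and 48 h after acetate it had 42.4, 36.6, 25.7 and 22.1 RPKM in sta6 and 130, 136, 129 and 134 in CC-4349, a difference from boost 0 h of -2.25 (SE 0.419, limma adjusted p = 0.00711). All 8 late libraries lay below the boost 0 h library of their strain. Without the sta6 library at boost 0 h, CC-4349 alone was compared, with a difference of -1.07, and the call was lost. Boost 0 h and 48 h without nitrogen are labelled as separate samples, and the difference between them for this model comes from 1 library of each per strain.

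Cre06.g284100.t1.1 rose late after acetate, with 5.06, 5.61, 9.56 and 12.1 RPKM at 8, 12, 24 and 48 h in sta6, against 1.56 RPKM at boost 0 h, and 0.377, 1.02, 0.656 and 0.836 RPKM in CC-4349, against 0.288 RPKM at boost 0 h. The difference was 1.08 (SE 0.235, limma adjusted p = 0.0162). Without the sta6 library at boost 0 h, CC-4349 alone was compared, with a difference of 0.40, and the call was lost. Without sta6 at 48 h after acetate the difference over both strains was 0.98, just under 2-fold. With matched times as a random block the adjusted p of limma was 0.0898, with an additive model it was 0.197, and with a pseudocount of 5 the difference was 0.54. The highest late value in sta6, 12.1 RPKM, was below the 61.0 RPKM measured before the wash.

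**Figure D3:**
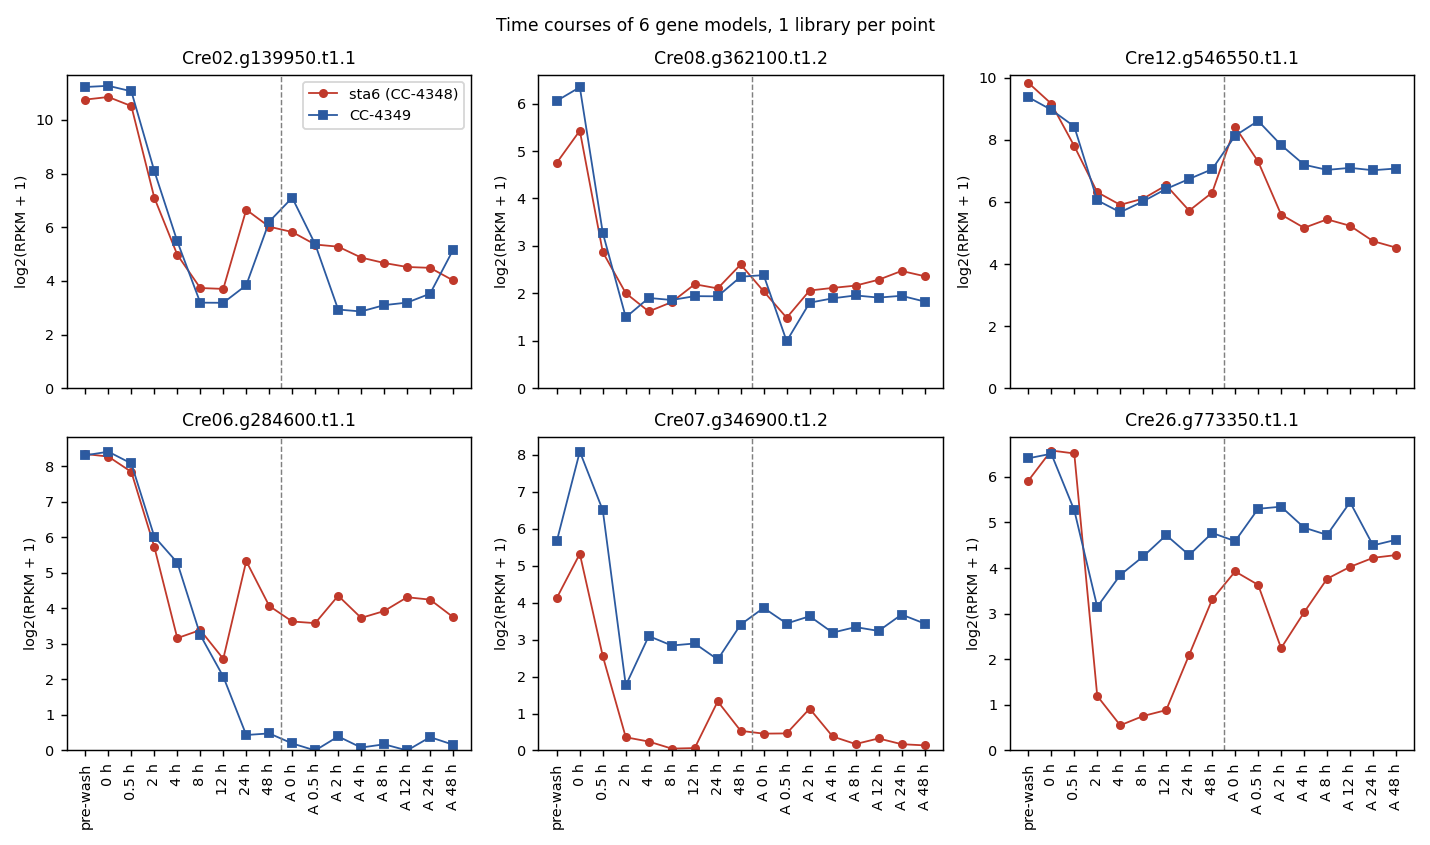
Level of 6 of the gene models as log2(RPKM + 1) (vertical axis) in each library in time order (horizontal axis, A marking hours after acetate, dashed line at the boost), with 1 library per point, sta6 in red circles and CC-4349 in blue squares. Cre08.g362100.t1.2 was down at 0.5 h and Cre12.g546550.t1.1 peaked again around the boost. In Cre26.g773350.t1.1 the strains lay apart after the fall but were close at 24 and 48 h after acetate. They lay apart from 24 h without nitrogen in Cre06.g284600.t1.1 and throughout in Cre07.g346900.t1.2.

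The strains differed in level in some of the models after the fall. Over the 10 matched times from 8 h without nitrogen to 48 h after acetate that the rule did not use (24 and 48 h without nitrogen left out), 6 of the 49 were higher in sta6 and 4 were lower by limma with the time point as a block. Over all models tested 3.17% were called higher and 3.37% lower. The 49 had a median difference of 0.14, against -0.06 over all models tested.

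Cre06.g284600.t1.1 differed most, with a lowest, median and highest value of 4.98, 12.4 and 19.5 RPKM in sta6 and 0, 0.137 and 8.52 in CC-4349. It was higher in sta6 at 10 of 10 times, with a difference of 3.08 (SE 0.406, limma adjusted p = 7.31e-05). Before the wash and at 0 h the strains had been alike, with 325 and 309 RPKM in sta6 and 317 and 340 in CC-4349. At 4, 8, 12, 24 and 48 h without nitrogen it had 7.96, 9.49, 4.98, 39.3 and 15.8 RPKM in sta6, and 38.1, 8.52, 3.23, 0.352 and 0.395 RPKM in CC-4349. From 24 h onward no more than 7 reads lay behind a value of CC-4349.

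Cre07.g349200.t1.1 had a lowest, median and highest value of 33.4, 70.4 and 227 RPKM in sta6 and 2.13, 6.99 and 63.4 in CC-4349, and was higher in sta6 at 10 of 10 times (difference 2.98, SE 0.332, limma adjusted p = 1.82e-05). Cre16.g652000.t1.2 had 4.29, 10.4 and 14.4 RPKM in sta6 and 0.0946, 0.556 and 8.60 in CC-4349, higher in sta6 at 9 of 10 times (difference 2.39, SE 0.341, limma adjusted p = 0.00014). In both the ranges of the strains overlapped, the highest CC-4349 value being that at 8 h without nitrogen. Cre01.g042200.t1.1 (1.96), Cre16.g680700.t1.1 (1.80) and Cre06.g284100.t1.1 (1.38, but 0.60 with a pseudocount of 5) were also called higher in sta6. Cre16.g680700.t1.1 and Cre06.g284100.t1.1 were higher in sta6 at 10 of 10 times, and Cre01.g042200.t1.1 at 8 of 10. At 8 and 12 h without nitrogen Cre01.g042200.t1.1 was lower in sta6, with 10.3 and 8.92 RPKM, against 36.5 and 18.0 RPKM in CC-4349. It was lower in sta6 before the wash too, with 293 RPKM, against 479 RPKM in CC-4349. Before the wash Cre16.g680700.t1.1 had 438 RPKM in sta6, against 256 RPKM in CC-4349, and Cre06.g284100.t1.1 had 61.0 RPKM in sta6, against 14.0 RPKM in CC-4349.

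Cre07.g346900.t1.2 was lower in sta6, with a lowest, median and highest value of 0.0354, 0.191 and 1.19 RPKM in sta6 and 6.16, 9.47 and 13.5 in CC-4349. The difference was -3.02 (SE 0.0972, limma adjusted p = 2.21e-10). It was lower in sta6 before the fall as well, with 16.5 RPKM before the wash in sta6, against 50 RPKM in CC-4349. Few reads lay behind its sta6 values after the fall. There were 1 and 2 at 8 and 12 h without nitrogen, and 2, 17, 2 and 5 at 8, 12, 24 and 48 h after acetate. Cre07.g346950.t1.2, close by on the chromosome, was instead higher in sta6 before the wash, with 54.9 RPKM, against 27.6 RPKM in CC-4349. At the matched times it had 0.0965, 1.19 and 3.38 RPKM in sta6 and 4.19, 7.54 and 11.4 in CC-4349. The difference was -1.96 (SE 0.0817, limma adjusted p = 2.25e-09), and -0.99 with a pseudocount of 5. Cre16.g680700.t1.1 had 30.2, 55.0 and 78.2 RPKM in sta6 and 10, 17 and 22.5 in CC-4349. It and the 2 chromosome 7 models were the 3 of the 49 whose strains did not overlap at these times. Over all models tested 5.90% showed this pattern. A share of 3 in 49 is near that background.

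Cre26.g773350.t1.1 had a lowest, median and highest value of 0.689, 12.0 and 18.5 RPKM in sta6 and 18.1, 25.5 and 42.6 in CC-4349. It was lower in sta6 at 10 of 10 times (difference -1.76, SE 0.359, limma adjusted p = 0.00182). Cre12.g546550.t1.1 had 22.1, 44.9 and 341 RPKM in sta6 and 64.0, 135 and 390 in CC-4349, and sta6 was the lower at 7 of 10 times (difference -1.34, SE 0.301, limma adjusted p = 0.00342). Its strains were close at 8 h without nitrogen, with 68.0 RPKM in sta6 and 64.0 in CC-4349, and furthest apart at 48 h after acetate.

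**Figure D4:**
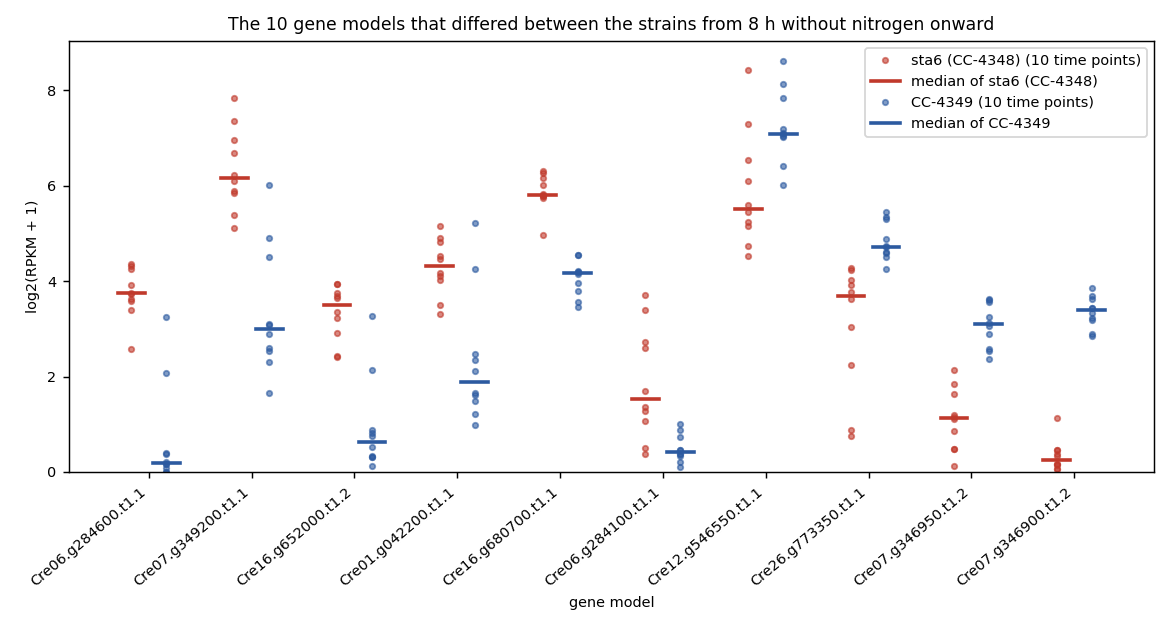
Level as log2(RPKM + 1) (vertical axis) of the 10 gene models that differed between the strains (horizontal axis) at the 10 matched times from 8 h without nitrogen onward that the rule did not use, with 1 point per library, sta6 in red left of CC-4349 in blue, and bars at the medians. The points of the strains do not overlap in Cre16.g680700.t1.1, Cre07.g346950.t1.2 and Cre07.g346900.t1.2.

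Whether the fall from 0 h to 8 and 12 h differed in size between the strains was tested as the difference of the strain-wise changes. The median change was -3.34 in sta6 and -2.70 in CC-4349, and 28 of the 49 fell more in sta6. By limma, 1 of the 49 had a higher change in sta6, where 1.72% of all models tested did, and 1 had a lower change, where 2.40% did. The share is near the background in both directions in this fit, which does not pair the matched times. The changes of the strains, which share no library, had a Pearson correlation of 0.802 over the 49 models, a description over models chosen to fall in both strains.

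Cre26.g773350.t1.1 fell more in sta6, to 0.689 and 0.847 RPKM at 8 and 12 h, against 94.6 RPKM at 0 h, than in CC-4349, with 18.1 and 25.4 RPKM at 8 and 12 h, against 90 RPKM at 0 h. The difference of the changes was -3.74 (SE 0.629, limma adjusted p = 0.00258). In sta6 it stood at 8.93 RPKM at 48 h without nitrogen and 18.5 RPKM at 48 h after acetate, beside 26.3 and 23.6 RPKM in CC-4349 at those times. Cre13.g603550.t1.1 had a difference of 2.36 (SE 0.622, limma adjusted p = 0.0395), with 1.42 and 1.17 RPKM at 8 and 12 h in sta6, against 15.4 RPKM at 0 h, and 7.90 and 1.99 RPKM in CC-4349, against 188 RPKM at 0 h. Before the wash the strains had 154 RPKM in sta6 and 127 in CC-4349 of Cre13.g603550.t1.1, so the sta6 library at 0 h stood far below its own pre-wash value. The difference was 2.28 without sta6 at 8 h without nitrogen (limma adjusted p = 0.0903) and 1.58 without CC-4349 at 12 h without nitrogen (limma adjusted p = 0.0662). This call was also lost without any 1 of the CC-4349 libraries at 8 to 48 h after acetate, and without sta6 at 8 or 24 h after acetate (limma adjusted p between 0.0518 and 0.0561). The number called was 1 of the 49 in each of these fits but that without sta6 at 8 h without nitrogen. It was 4 without CC-4349 at 0.5 h after acetate, 5 without sta6 at that time, and 11, 2 higher and 9 lower in sta6, with matched times as a random block. In that fit 4.48% of all models tested were called higher and 4.75% lower, beside 4.08% and 18.4% of the 49, so the share with a larger fall in sta6 exceeded the background there. The 0 h libraries, 1 per strain, could not be left out of this comparison.

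The rule asks for a fall in both strains, and more models met it in 1 strain alone, 84 in sta6 and 40 in CC-4349. Of the 84 that met it in sta6 alone, 70 (83.3%) were also called lower at 8 and 12 h as the mean of the strains, and of the 40 in CC-4349 alone 21 (52.5%), beside 47 of the 49 (95.9%). Their median strain-wise changes were -2.70 in sta6 and -1.49 in CC-4349 for the 84, and -0.70 in sta6 and -1.59 in CC-4349 for the 40. In the test of the difference between the strains, 16 of the 84 (19.0%) had a larger fall in sta6, against 2.40% of all models tested, and 1 had a larger fall in CC-4349. Of the 40, 3 (7.50%) had a larger fall in CC-4349, against 1.72% of all models tested, and 1 had a larger fall in sta6. Both sets were chosen for a fall in 1 strain and not in the other, so these directions are part of how they were chosen. On the median, both sets were also lower in the other strain, by less.

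On the chromosomes the 49 were spread out. The reference annotation matched 43 of the 49 identifiers. Among those 43, chromosome 12 held 8, chromosome 3 held 6, and chromosomes 1 and 6 held 5 each, while chromosomes 11, 14 and 15 held 0, and no chromosome had more than 0.623% of its tested models among them. Only 3 pairs lay close together. Cre06.g284100.t1.1 and Cre06.g284600.t1.1 had 10 models between them, Cre07.g346900.t1.2 and Cre07.g346950.t1.2 had 2, and Cre12.g534250.t1.1 and Cre12.g534450.t1.2 had 4. Of the models between the chromosome 6 pair, 9 were tested and 1 was called lower at 8 and 12 h. Between the chromosome 12 pair 3 were tested, 0 were called lower and 1 was called higher, and between the chromosome 7 pair 0 were tested. Of the models directly next to the 49, 72 were tested at 8 and 12 h against 0 h and 8 (11.1%) were called lower, beside 7.56% of all models tested. Reads shared by near-identical neighbours cannot be assigned in such a table, so the likeness of the chromosome 7 pair is uncertain in this respect.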

How the data were processed

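RNA was sequenced in 34 libraries, 17 of sta6 and 17 of CC-4349. The authors deposited 1 table with 1 value per gene model and library. Its unit is not named and was taken to be RPKM from the deposited values, which are not whole and step by the worth of 1 read. Reads were aligned with Bowtie, per the submitters' processing notes. Its version, the genome build, annotation, counting rule and strand setting were not given in the sources used here, so reads shared by near-identical or antisense genes cannot be told apart. Columns were matched to samples by the names in the labels, except for 1 letter in that of the sta6 library 24 h into the boost, and 0 columns belonged to other samples. Relative depth was recovered from the steps, and 100% of 1666 values of the 49 models were whole within 0.05 reads. The step of each model was sought with that same tolerance, so this share is largely built in and is no separate check. Absolute depth is not given.

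Levels were analysed as log2(RPKM + 1). Models with at least 1 RPKM in any library, 15598 of 17301, were tested with limma 3.58.1 (R 4.3.3, moderated with a mean-variance trend, Benjamini-Hochberg over all 15598). Models were called at an adjusted p below 0.05 if they also differed 2-fold or more. One model of 12 strain-by-phase groups over the 24 libraries not used by the rule gave 12 residual degrees of freedom, and groups of 1 library were assumed to vary like the others. The strain difference, over 10 matched times with time as a block, had 9. The scripts were tested on simulated data. Where the only library of a strain at 0 h, 0.5 h or boost 0 h was left out, comparisons averaged over the strains that use it rested on the other strain alone. Alternatives were other pseudocounts, filters, scalings, models and baselines, and each library left out (the 0 h libraries could not be left out of the comparison by strain); the joint baseline of 0 and 0.5 h for the late boost was chosen after seeing the data.

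The 49 models, the lists and the comparisons were chosen with earlier results of these data known. Named models were the 10 highest before the wash, the 5 largest and 5 smallest differences at 8 and 12 h, the 5 largest falls at 0.5 h, up to 3 called models per direction in the late boost and strain comparisons, and 3 on each side of the threshold; others are named where a count is small, after their values were seen. Of 17301 identifiers, 12666 (73.2%) had a locus tag in the reference table of Chlamydomonas_reinhardtii_v5.5, which gave no names or products, so pathway lists, motifs and proteins were not used here and only the order of neighbours was taken from it.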

Additional observations from a re-analysis of the deposited data

Results flagged for a closer look

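In 4 of 50 groups of 4 late boost libraries (25 named models in each strain), 1 library lay far from the other 3. Among replicates chance alone flags about 1 in 20 such groups. These libraries are 4 different times, so that rate need not hold and a change over time can be flagged. All 4 flagged groups were in CC-4349, at 4 different models and times. Cre02.g139950.t1.1 had 34.6 RPKM at 48 h after acetate, with the others between 7.55 and 10.5 RPKM. Cre12.g532100.t1.1 had 21.7 RPKM at 12 h, with the others between 15.5 and 15.8 RPKM. Cre16.g652000.t1.2 had 0.434 RPKM at 8 h, with the others between 0.234 and 0.260 RPKM. Cre03.g179500.t1.1 had 0.158 RPKM at 24 h, with the others between 0 and 0.0256 RPKM, a value of few reads.

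The change from 0 h to 8 and 12 h differed between sta6 and CC-4349 in the limma test of the difference for Cre26.g773350.t1.1 (-3.74, adjusted p = 0.00258) and for Cre13.g603550.t1.1 (2.36, adjusted p = 0.0395). The call for Cre13.g603550.t1.1 was lost in 8 of 22 fits that left out a library, with limma adjusted p between 0.0518 and 0.0903, and also with a pseudocount of 0.1 (0.251), with quantile normalization (0.0939) and with 0 and 0.5 h together as the baseline (0.303). Its sta6 value at 0 h was 15.4 RPKM, against 154 RPKM before the wash.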

How the results depend on the processing

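The counts of the 49 called lower were 47 to 48 at 8 and 12 h and 48 late after the boost against 0 h when each library was left out in turn. The 10 that differed between the strains were 10 to 11. The 11 called at 0.5 h were 7 with a pseudocount of 5, 7 with an additive model and 8 to 11 with a library left out. The 3 called early after acetate were 6 with a pseudocount of 0.1, 1 with a pseudocount of 5, 0 with an additive model, 1 with matched times as a random block, 5 with 2 and 4 h alone and 0 to 5 with a library left out (0 without CC-4349 at boost 0 h, 5 without sta6 at 0.5 h after acetate). The 3 called late against boost 0 h were 1 with the random block and 1 to 3 with a library left out (1 without sta6 at boost 0 h). The 2 whose change differed by strain were 11 with the random block and 1 to 5 in 22 fits with a library left out, the 0 h libraries being needed (5 without sta6 at 0.5 h after acetate, the others as given above). Matched times of the strains deviated together (consensus correlation 0.402). The rule itself took 124 models with a threshold of 1, 18 with 2, 78 without 2 h, 89 in CC-4349 alone, 133 in sta6 alone, and 58 with 0 h in place of pre-wash, 38 of them among the 49. The causes were not tested. Over 730 values of the 25 models named by the set criteria, 30 lost a call under the alternatives and 0 changed sign. Of the fits without a library, only the smallest difference and the highest adjusted p entered this count. Calls lost by other models of the 49, such as Cre13.g603550.t1.1 and Cre12.g507800.t1.1, are not in it. The labels give no replicate numbers, so the strains were paired by time point alone. Values of models with fewer than 10 reads in a library are limited by depth.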
